A study of Mus musculus with 14 samples.

Results

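Stra8, Meioc, Ythdc2 and Rec8 are mouse genes of the entry into meiosis, and their RNA was followed here across all the groups of a study of embryonic stem cells. They were taken by symbol from an annotation of Ensembl gene IDs, and the 4 are among 37991 genes in each of the deposited count tables. All 4 were found, all 4 passed the filter on low counts in both experiments, and none shares exon bases with another annotated gene. The cells were embryonic stem cells of the line J1 (strain 129S4/SvJae), poly(A) RNA was sequenced in 14 libraries, and each of the 7 groups had 2 of them. Experiment 1 held Dnmt-TKO cells with PRT4165, Dnmt-TKO cells with the vehicle DMSO, wild-type cells with PRT4165 and wild-type cells with DMSO. Experiment 2, a separate table, held untreated Tet1-KO Dnmt-TKO cells, untreated Dnmt-TKO cells and untreated wild-type cells. Dnmt-TKO cells lack the DNA methyltransferases Dnmt1, Dnmt3a and Dnmt3b, a loss that the Tet1-KO Dnmt-TKO cells carry too. Tet1 encodes an enzyme that oxidises methylated cytosine, and PRT4165 inhibits PRC1, the polycomb complex that ubiquitinates histone H2A. The sources used here do not say whether a genotype is 1 clone, so a change of genotype and a change of clone cannot be told apart.

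Meiosis begins when a germ cell stops dividing by mitosis and enters a long prophase in which homologous chromosomes pair and recombine. STRA8 is a transcription factor, induced by retinoic acid in germ cells and acting with its partner MEIOSIN, that switches on the genes of this prophase. MEIOC and YTHDC2 act on RNA rather than on transcription. YTHDC2 is a helicase that can bind N6-methyladenosine, MEIOC is its partner, and together they lower the messenger RNAs of the mitotic programme. REC8 is the kleisin subunit of the meiotic cohesin ring that holds sister chromatids together. Stra8 was first known as a gene that retinoic acid induces in embryonal carcinoma cells, and several germline genes are known for promoters whose methylation accompanies silence in somatic tissue.

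The study removed enzymes that act on CpG dinucleotides, so the CpG content of the members' promoters is shown. The 250 bases before the annotated start were taken from RefSeq on build GRCm38.p6, which is later than the build mm9 of the count tables, and 3 of the 4 members had an entry. Capitals mark CpG, and all 3 genes lie on the plus strand, at chr6:34920698-34920947 (Stra8), chr11:102665335-102665584 (Meioc) and chr14:55617916-55618165 (Rec8):
Stra8: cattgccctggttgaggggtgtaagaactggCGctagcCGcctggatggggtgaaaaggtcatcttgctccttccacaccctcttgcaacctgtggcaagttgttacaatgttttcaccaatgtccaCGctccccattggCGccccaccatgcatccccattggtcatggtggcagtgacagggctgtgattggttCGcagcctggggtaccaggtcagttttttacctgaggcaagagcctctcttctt
Meioc: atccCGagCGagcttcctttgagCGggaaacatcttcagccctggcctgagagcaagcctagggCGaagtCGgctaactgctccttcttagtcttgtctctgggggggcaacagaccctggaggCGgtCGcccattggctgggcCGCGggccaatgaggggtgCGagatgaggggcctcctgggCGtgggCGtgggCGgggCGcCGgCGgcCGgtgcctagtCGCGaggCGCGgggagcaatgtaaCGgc
Rec8: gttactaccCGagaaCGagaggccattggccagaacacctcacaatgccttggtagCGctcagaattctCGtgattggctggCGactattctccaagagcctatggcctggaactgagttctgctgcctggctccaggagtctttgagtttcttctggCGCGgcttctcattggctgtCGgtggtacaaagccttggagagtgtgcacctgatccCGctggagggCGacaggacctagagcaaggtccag

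The Stra8 window held 5 CpG, the Meioc window 22 and the Rec8 window 10, against a median of 6 and quartiles of 2 and 16 over 32851 such windows of 27025 genes. Methylation was not measured in these files. Motifs were searched on both strands and were chosen with the sequences in view. CCAAT, the box bound by the factor NF-Y, had 4 matches before Stra8, 2 before Meioc and 3 before Rec8. Of all windows, 33.9% held it at least once, 10.1% at least 2 times and 2.79% at least 3 times. AGGTCA, the half-site of nuclear receptors such as those for retinoic acid, had 2 matches before Stra8 and none before the others, and 1.36% of all windows held 2 or more. TCCCGC, an E2F-type motif, had 1 match each before Meioc and Rec8 (16.9% of windows hold one), and GGGCGG, the GC box, had 1 before Meioc (32.7%). CACGTG and CNCCTCAG, the second a motif reported for STRA8 targets, were in none of the 3 windows and in 6.02% and 6.42% of all. No overlap between motifs was resolved, and a match is a description of letters.

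A library held at least 25588815 and at most 37399837 counts in experiment 1, and at least 23354015 and at most 41844823 in the other experiment. Levels are CPM, read counts divided by a library size that TMM factors adjust within an experiment, so levels of one experiment are not on the same scale as those of the other. The genotypes were first checked on the targeted genes. Tet1 had 134 and 201 CPM in Tet1-KO Dnmt-TKO cells, against 791 and 742 CPM in Dnmt-TKO cells, a log2 change of -2.19. Dnmt1 lay between 116 and 158 CPM in all Dnmt-deficient libraries and between 305 and 434 CPM in wild type. Dnmt3a and Dnmt3b fell in Dnmt-TKO cells too, with log2 changes of -1.28 and -2.14 under DMSO. Dnmt3a was lower again in Tet1-KO Dnmt-TKO cells than in Dnmt-TKO cells (log2 change -1.04, adjusted p = 0.000599 by edgeR). All 14 stem cell markers, such as Pou5f1, were detected in every library.

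Per kilobase of exon, Stra8 had the highest mean of the members in all 7 groups, and in 6 of them by more than the spread between libraries. It had 39.5 ± 4.24 CPM per kb in Dnmt-TKO cells with PRT4165, 45.6 ± 0.40 in Dnmt-TKO cells with DMSO, 32.2 ± 0.93 in wild-type cells with PRT4165 and 30.7 ± 0.16 in wild-type cells with DMSO (SD, n = 2). The other 3 members lay between 2.15 and 5.74 CPM per kb in those groups. In Tet1-KO Dnmt-TKO cells the order closed up: Stra8 averaged 3.56 ± 0.89 CPM per kb, Rec8 3.40 ± 0.05, Ythdc2 3.02 ± 0.22 and Meioc 1.31 ± 0.22 (SD, n = 2). There Stra8 and its nearest neighbours in the order, Rec8 and Ythdc2, did not differ beyond their spread. In Dnmt-TKO cells without the Tet1 mutation, Stra8 averaged 21.04 ± 5.17 CPM per kb and the rest lay between 2.996 and 5.92. In untreated wild-type cells it averaged 33.9 ± 5.28 CPM per kb and the rest lay between 2.20 and 5.30.

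**Figure D1:**
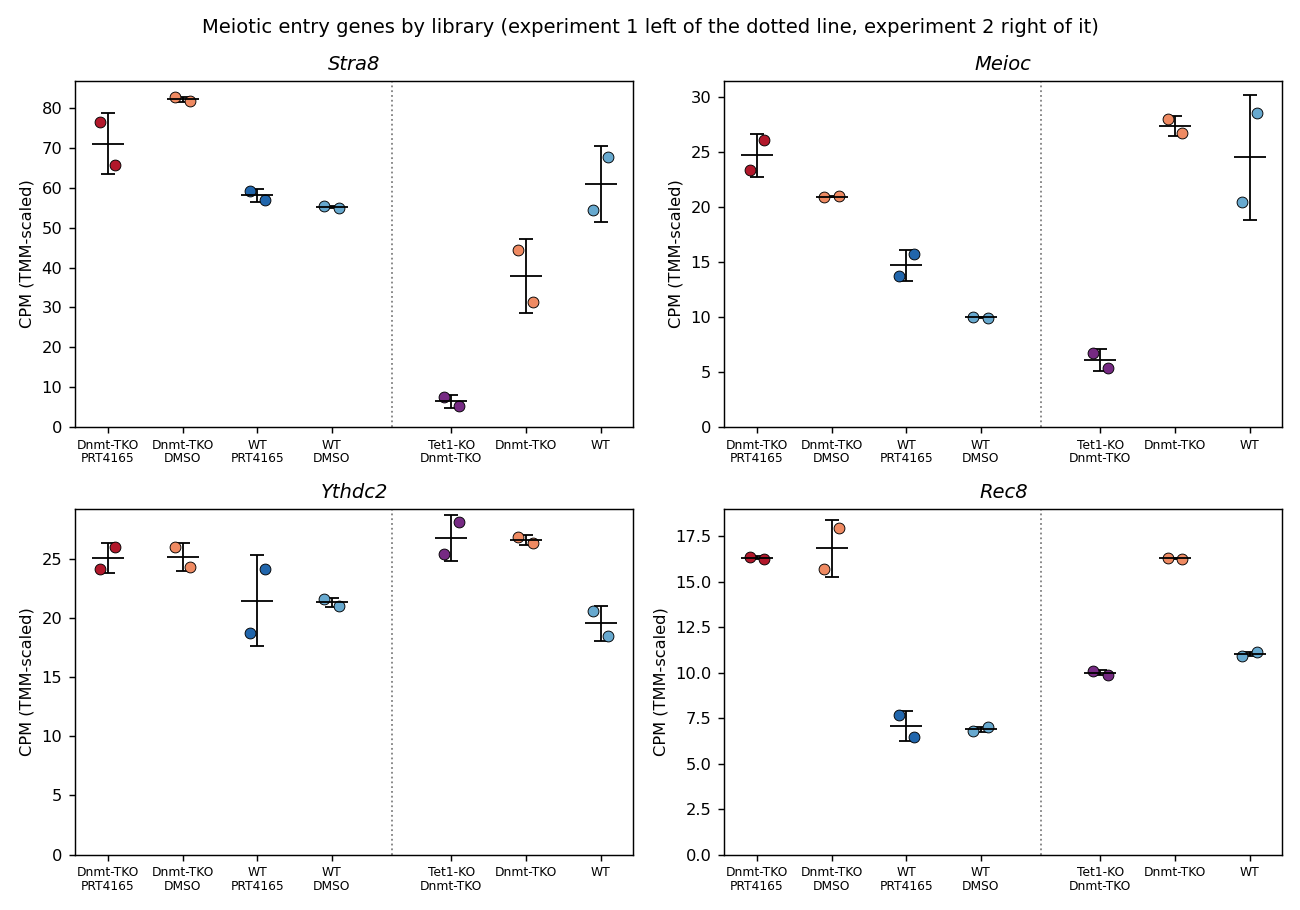
CPM of each member in each of the 14 libraries (points), with the group mean and SD (bars, n = 2); the dotted line separates the experiments, which were scaled apart. Stra8 sits at 5.28 and 7.54 CPM in Tet1-KO Dnmt-TKO cells and at 31.3 or more in every other library, while Ythdc2 stays between 18.5 and 28.1 CPM throughout.

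Of the 4 genes, 3 were lower in Tet1-KO Dnmt-TKO cells than in Dnmt-TKO cells. Stra8 had 7.54 and 5.28 CPM in Tet1-KO Dnmt-TKO cells, against 44.5 and 31.3 CPM in Dnmt-TKO cells and 54.4 and 67.8 CPM in wild-type cells. Both Tet1-KO Dnmt-TKO libraries, with 281 and 215 reads of Stra8, lie far below every other one. Stra8 was 5.93-fold lower in Tet1-KO Dnmt-TKO cells than in Dnmt-TKO cells (log2 change -2.57 ± 0.20 SE, adjusted p = 1.3e-05, edgeR's quasi-likelihood test), and 9.54-fold lower than in wild type (-3.25 ± 0.20, adjusted p = 1.34e-07).

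Meioc had 6.74 and 5.33 CPM in Tet1-KO Dnmt-TKO cells, against 28.0 and 26.7 CPM in Dnmt-TKO cells and 20.5 and 28.5 CPM in wild-type cells. The mutant libraries do not overlap with those of either other genotype, though for how many of all genes this holds was not counted. The fall was 4.54-fold against Dnmt-TKO cells (log2 change -2.18 ± 0.17 SE, adjusted p = 1.36e-05) and 4.05-fold against wild type (-2.02 ± 0.17, adjusted p = 1.99e-06). Stra8 and Meioc ranked 35 and 43 by p among the 16303 genes tested between Tet1-KO Dnmt-TKO and Dnmt-TKO cells. Their log2 changes lay at the percentiles 0.380 and 0.810 of all genes.

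Rec8 had 10.1 and 9.89 CPM in Tet1-KO Dnmt-TKO cells, against 16.3 and 16.3 CPM in Dnmt-TKO cells and 10.9 and 11.1 CPM in wild-type cells. The Tet1-KO Dnmt-TKO libraries are below those of both other genotypes, by little against wild type. Rec8 was 1.63-fold lower in Tet1-KO Dnmt-TKO than in Dnmt-TKO cells (log2 change -0.71 ± 0.13 SE, adjusted p = 0.00288). Against wild type the change was -0.14, with a 95% interval of -0.43 to 0.15 (adjusted p = 0.4, edgeR), and did not pass the test.

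Ythdc2 had 25.4 and 28.1 CPM in Tet1-KO Dnmt-TKO cells, against 26.9 and 26.3 CPM in Dnmt-TKO cells and 20.6 and 18.5 CPM in wild-type cells. The Tet1-KO Dnmt-TKO and Dnmt-TKO libraries overlap, and the wild-type libraries lie below both. Between the mutants the log2 change was 0.01 with a 95% interval of -0.24 to 0.26 (adjusted p = 0.965, edgeR). Its sign was negative with library-size and upper-quartile scaling, with a filter of 1 CPM, and on leaving out 1 library, where the lowest value was -0.061. Its interval does not overlap with that of its partner Meioc in the same comparison, -2.56 to -1.81. Against wild type Ythdc2 was higher in Tet1-KO Dnmt-TKO cells (log2 change 0.45 ± 0.12 SE, adjusted p = 0.00723), but not without Tet1-KO Dnmt-TKO replicate 2 (adjusted p = 0.0515, edgeR).

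Of all genes tested between Tet1-KO Dnmt-TKO and Dnmt-TKO cells, 10.4% were called lower and 11.6% higher, beside 3 of 4 members lower and 1 not called. The median log2 change of the members was -1.44, against 0.00 for all genes. Between Tet1-KO Dnmt-TKO and wild-type cells, 24.4% of genes were called lower and 26.3% higher, beside 2 members lower and 1 higher.

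Lists of cell type markers were counted between Tet1-KO Dnmt-TKO and Dnmt-TKO cells as well, where 11.6% of all genes were called higher and 10.4% lower. Of 12 tested trophoblast markers, 11 rose in Tet1-KO Dnmt-TKO against Dnmt-TKO cells, and the list summed to 663 to 831 CPM in Tet1-KO Dnmt-TKO cells, against 225 to 230 CPM in Dnmt-TKO cells. Of 10 markers of the 2-cell stage, 9 fell, with sums of 16.6 to 23.2 CPM in Tet1-KO Dnmt-TKO cells against 55.8 to 72.2 CPM in Dnmt-TKO cells. With 1 library left out, 5 to 8 of them fell, 5 without Dnmt-TKO replicate 2. Of 12 tested endoderm markers, 8 rose, with sums of 1171 and 2636 CPM in Tet1-KO Dnmt-TKO cells against 688 and 1119 CPM in Dnmt-TKO cells. In all 3 genotypes of experiment 2 replicate 2 had the higher endoderm sum (1054 and 1541 CPM in wild-type cells), and at each replicate number the sum was higher in Tet1-KO Dnmt-TKO than in Dnmt-TKO cells. In fits without the replicate number, 0 endoderm markers were called when Dnmt-TKO replicate 1 or Tet1-KO Dnmt-TKO replicate 2 was left out, and 12 when Tet1-KO Dnmt-TKO replicate 1 was. Embryonic stem cell markers summed to 7660 to 7782 CPM in Tet1-KO Dnmt-TKO cells against 7150 to 7221 CPM in Dnmt-TKO cells, and germ cell markers to 809 to 845 CPM in Tet1-KO Dnmt-TKO cells against 914 to 953 CPM in Dnmt-TKO cells. Of 14 stem cell markers 3 rose and 2 fell, with a median log2 change of -0.06. Of 14 germ cell markers 3 rose and 4 fell. Of 9 tested fibroblast feeder markers, 1 rose and 3 fell. That list summed to 446 to 542 CPM in Tet1-KO Dnmt-TKO cells against 561 to 634 CPM in Dnmt-TKO cells. Of 10 tested spermatogonial markers, 2 rose and 5 fell, with a median of -0.44 and sums of 933 to 959 CPM in Tet1-KO Dnmt-TKO cells against 985 to 1005 CPM in Dnmt-TKO cells. With any 1 of those libraries left out, the number that fell was 5. Nanos2, Dmrt1, Sohlh1 and Sohlh2 of the spermatogonial list and Dazl, Ddx4 and Nanos3 of the germ cell list are also counted as meiotic entry regulators. At most 1 of 14 trophoblast markers, at most 1 of 14 spermatogonial markers and 0 of the 2-cell, endoderm, stem cell and germ cell markers were at 0 in these libraries. The part of such cells in the members' results was not tested, and in bulk RNA fewer cells of a type and less RNA per cell cannot be told apart.

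**Figure D2:**
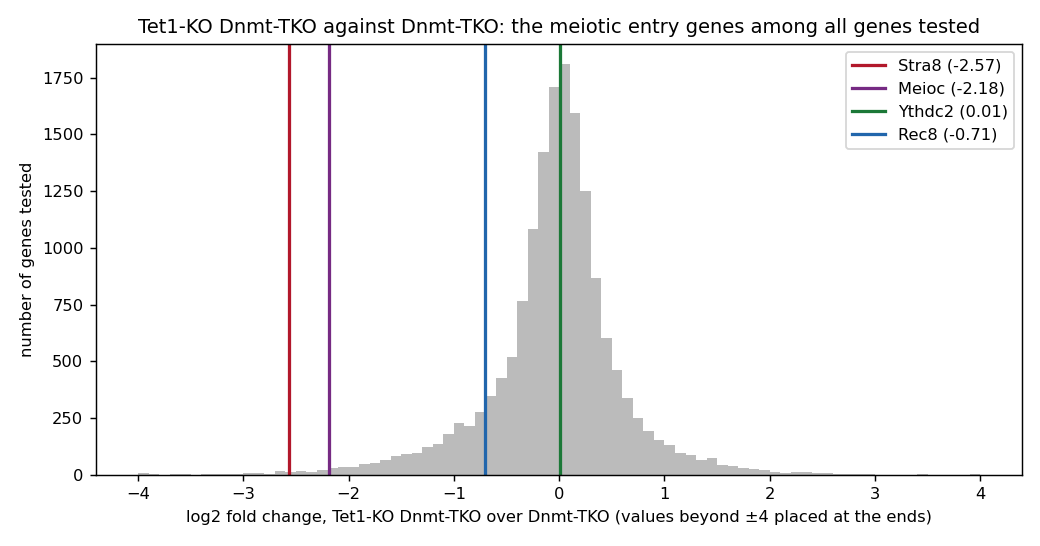
Number of genes (y axis, bins of 0.1) by log2 fold change of Tet1-KO Dnmt-TKO over Dnmt-TKO cells (x axis), with vertical lines at the 4 members. Stra8 at -2.57 and Meioc at -2.18 stand in the lower tail, Rec8 at -0.71 on its shoulder and Ythdc2 at 0.01 in the centre.

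The genes beside the members on their chromosomes were measured in the same comparison. They were the nearest genes on each side that passed the filter: Wdr91 and Slc23a4 beside Stra8, Fzd2 and Ccdc43 beside Meioc, Mcc and Kcnn2 beside Ythdc2, and Irf9 and Ipo4 beside Rec8. Between Tet1-KO Dnmt-TKO and Dnmt-TKO cells, where 11.6% of all genes were called higher and 10.4% lower, edgeR called 0 of these 8 flanking genes. Of the 8, 1 (Kcnn2) had an unadjusted p under 0.05 by edgeR, and DESeq2 called 0. Their log2 changes lay between -0.24 and 0.49. Next to Stra8, Wdr91 had a log2 change of -0.02 ± 0.13 SE and Slc23a4 one of 0.28 ± 0.33. Next to Meioc, Fzd2 had -0.22 ± 0.18 and Ccdc43 0.20 ± 0.12. Between Dnmt-TKO and wild-type cells under DMSO, 6 of the 8 were called, 4 higher and 2 lower, where 34.8% of all genes were higher and 34.2% lower. Mcc, Kcnn2, Irf9 and Ipo4 share exon bases with other genes. Fzd2, a Wnt receptor, was higher by 1.29 ± 0.11 on the log2 scale next to Meioc there (adjusted p = 9.07e-11, edgeR).

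**Figure D3:**
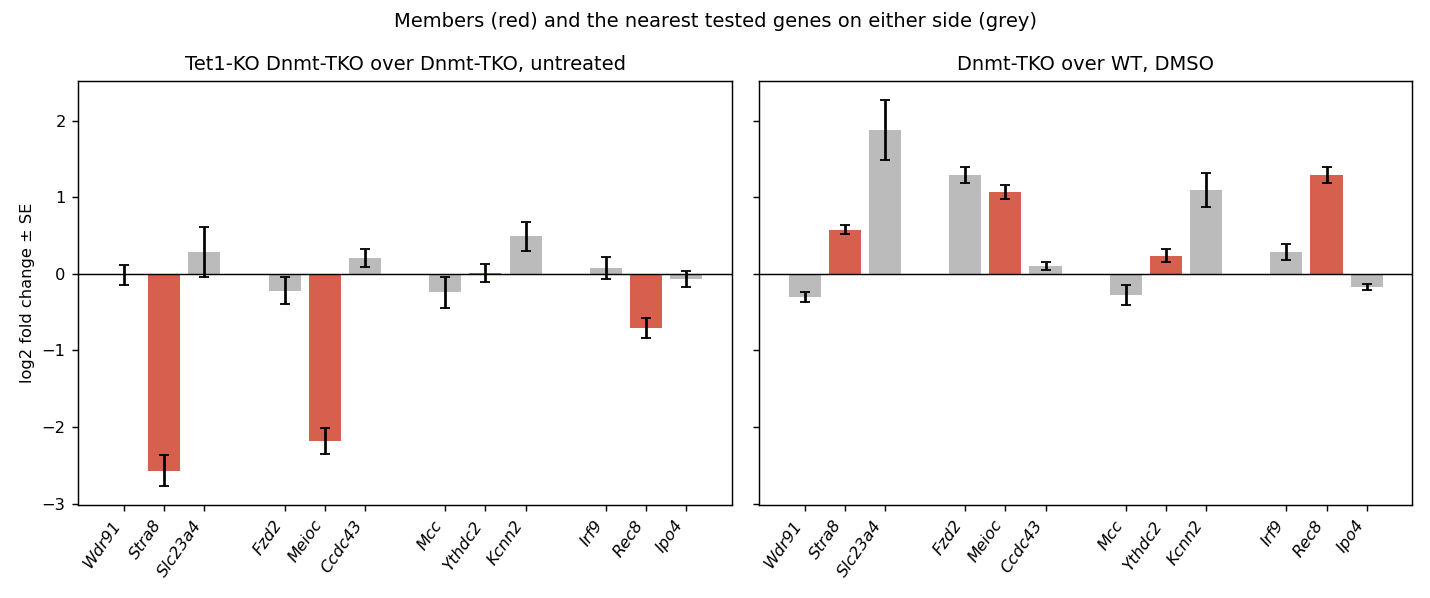
log2 fold change with SE of each member (red) and of the nearest tested gene on either side (grey), for Tet1-KO Dnmt-TKO over Dnmt-TKO cells (left) and Dnmt-TKO over wild-type cells with DMSO (right). On the left, Stra8 and Meioc reach below -2 while their flanking genes lie between -0.22 and 0.28; on the right, Slc23a4, Fzd2 and Kcnn2 are at 1.88, 1.29 and 1.10.

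All 4 members were higher in Dnmt-TKO than in wild-type cells in experiment 1. Rec8 had 15.7 and 17.9 CPM in Dnmt-TKO cells with DMSO, against 6.79 and 6.996 CPM in wild-type cells with DMSO. Meioc had 20.87 and 20.96 CPM in Dnmt-TKO cells, against 9.97 and 9.92 CPM in wild-type cells. Both genes separate the genotypes with no overlap, though how many of all genes did so was not counted. Rec8 rose 2.44-fold (log2 change 1.29 ± 0.11 SE, adjusted p = 8.25e-11) and Meioc 2.10-fold (1.07 ± 0.09, adjusted p = 1.63e-10).

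Stra8 had 82.7 and 81.7 CPM in Dnmt-TKO cells with DMSO, against 55.5 and 55.1 CPM in wild-type cells with DMSO. It rose 1.49-fold (log2 change 0.57 ± 0.06 SE, adjusted p = 6.26e-09, edgeR). Ythdc2 had 26.0 and 24.3 CPM in Dnmt-TKO cells, against 21.6 and 21.1 CPM in wild-type cells, the smallest of the 4 differences (0.24 ± 0.09, adjusted p = 0.0191). The Ythdc2 call was lost with DESeq2 (adjusted p = 0.0794) and when Dnmt-TKO replicate 1 or wild-type replicate 2 was left out. Of all genes, 34.8% were called higher and 34.2% lower in this comparison, beside 4 of 4 members higher.

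Marker lists were counted between these genotypes too, where 34.8% of all genes were called higher and 34.2% lower. Of 13 tested trophoblast markers, 12 rose in Dnmt-TKO cells, and the list summed to 994 to 1032 CPM in Dnmt-TKO cells with DMSO, against 101 to 112 CPM in wild-type cells with DMSO. All 10 markers of the 2-cell stage rose, with sums of 59.96 to 69.2 CPM in Dnmt-TKO cells against 1.21 to 1.5 CPM in wild-type cells. In the wild-type libraries 3 to 4 of 14 trophoblast markers and 1 to 3 of the 2-cell markers were at 0. Stem cell markers summed to 5802 to 5844 CPM in Dnmt-TKO cells, against 7191 to 7261 CPM in wild-type cells, and 5 of 14 rose and 9 fell. Of 14 germ cell markers, 8 rose and 6 fell, with sums of 1141 to 1160 CPM in Dnmt-TKO cells against 757 to 775 CPM in wild-type cells. Of 13 endoderm markers, 1 rose and 9 fell, with sums of 1345 to 1413 CPM in Dnmt-TKO cells against 1573 to 1575 CPM in wild-type cells. Of 13 tested spermatogonial markers, 5 rose and 4 fell, with sums of 854 to 885 CPM in Dnmt-TKO cells against 740 to 776 CPM in wild-type cells. Of 11 tested fibroblast feeder markers, 6 rose and 3 fell, while the list summed to 524 to 548 CPM in Dnmt-TKO cells against 687 to 763 CPM in wild-type cells. The part of these lists in the rise of the members was not tested.

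With PRT4165 in both genotypes, the 4 members were again higher in Dnmt-TKO cells, where 36.2% of all genes were. Rec8 was higher by 1.19 ± 0.10 (log2, SE; adjusted p = 2.79e-10, edgeR) and Meioc by 0.76 ± 0.08 (adjusted p = 1.93e-08). Stra8 was higher by 0.29 ± 0.06 (adjusted p = 0.000123) and Ythdc2 by 0.24 ± 0.09 (adjusted p = 0.0175). Without wild-type PRT4165 replicate 1, the change of Ythdc2 was 0.03 and not called, and it was also not called without Dnmt-TKO PRT4165 replicate 2 or with DESeq2 (adjusted p = 0.0778).

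In untreated cells the same pair of genotypes gave another order. Rec8 had 16.3 and 16.3 CPM in Dnmt-TKO cells, against 10.9 and 11.1 CPM in wild-type cells, and rose by 0.56 ± 0.13 (log2, SE; adjusted p = 0.00386). Ythdc2 rose by 0.44 ± 0.12 (adjusted p = 0.00856), a call lost without Dnmt-TKO replicate 1 (adjusted p = 0.065, edgeR). Meioc overlapped between the genotypes, with 28.0 and 26.7 CPM in Dnmt-TKO cells against 20.5 and 28.5 CPM in wild-type cells (0.16, 95% interval -0.19 to 0.52, adjusted p = 0.434), and was -0.07 without wild-type replicate 1.

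Stra8 was lower in untreated Dnmt-TKO cells. It had 44.5 and 31.3 CPM there, against 54.4 and 67.8 CPM in untreated wild-type cells (log2 change -0.68 ± 0.18 SE, adjusted p = 0.00794, edgeR). The call was lost without Dnmt-TKO replicate 2 (-0.45, adjusted p = 0.0794, edgeR) and without wild-type replicate 2 (-0.52, adjusted p = 0.0654). Trophoblast markers summed to 225 to 230 CPM in untreated Dnmt-TKO cells, against 87.3 to 89.8 CPM in untreated wild-type cells, and 10 of 12 tested rose. All 10 markers of the 2-cell stage rose, with sums of 55.8 to 72.2 CPM in Dnmt-TKO cells against 3.57 to 5.03 CPM in wild-type cells. Of 14 germ cell markers, 8 rose and 5 fell, with sums of 914 to 953 CPM in Dnmt-TKO cells against 501 to 542 CPM in wild-type cells. Of 12 tested endoderm markers 7 fell, and 2 did without Dnmt-TKO replicate 1 or wild-type replicate 2, with sums of 688 and 1119 CPM in Dnmt-TKO cells against 1054 and 1541 CPM in wild-type cells. Of 9 tested fibroblast feeder markers, 4 rose and 3 fell, while the list summed to 561 to 634 CPM in Dnmt-TKO cells against 666 to 832 CPM in wild-type cells. The part of these lists in the members' results was not tested. In these untreated cells 25.9% of all genes were called higher and 24.3% lower, beside 2 members higher, 1 lower and 1 not called.

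**Figure D4:**
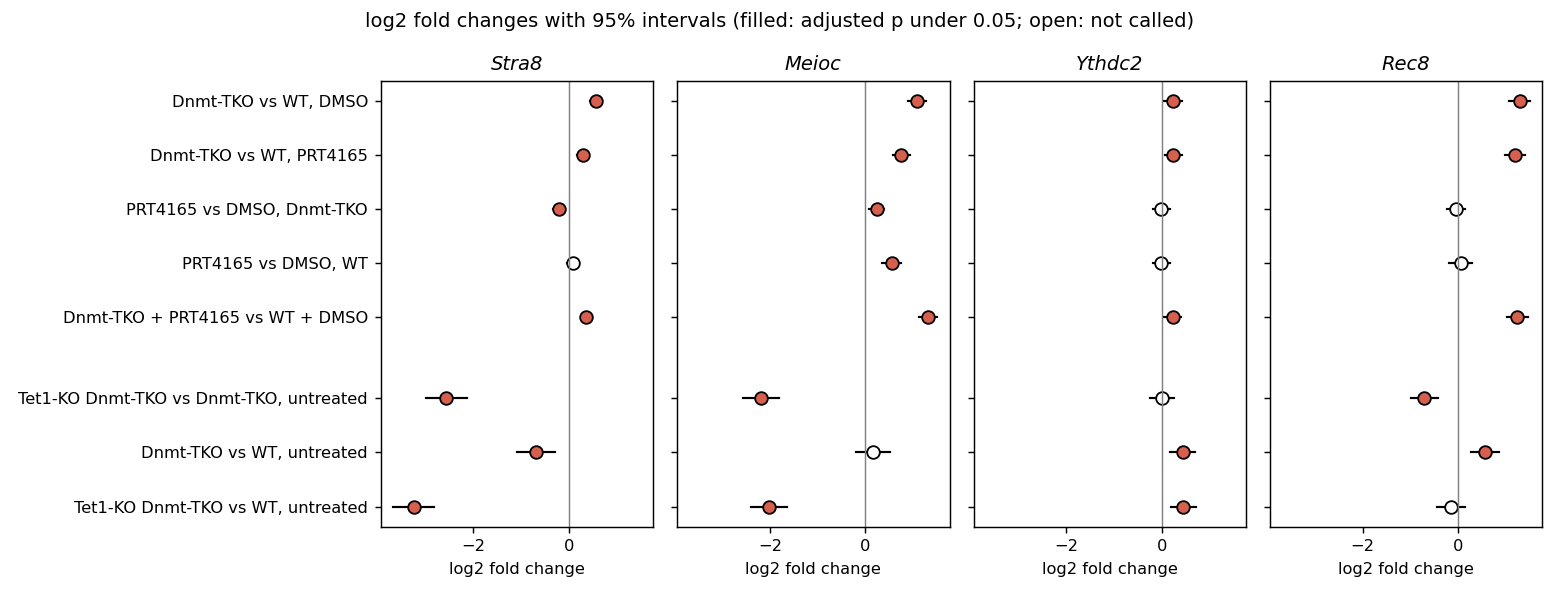
log2 fold change (points) with 95% interval (lines) of each member in 8 pairwise comparisons, filled where the adjusted p was under 0.05. Rec8 lies right of 0 in every comparison of Dnmt-TKO with wild type, Stra8 is at 0.57 under DMSO and at -0.68 in untreated cells, and Ythdc2 lies between -0.01 and 0.45.

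Meioc rose with the PRC1 inhibitor in both genotypes. In wild-type cells Meioc had 13.7 and 15.7 CPM with PRT4165, against 9.97 and 9.92 CPM with DMSO, and rose 1.47-fold (log2 change 0.55 ± 0.09 SE, adjusted p = 5.75e-05). In Dnmt-TKO cells it had 23.3 and 26.0 CPM with PRT4165, against 20.87 and 20.96 CPM with DMSO (0.24 ± 0.08, adjusted p = 0.0203). The second of these calls was lost with DESeq2 (adjusted p = 0.129) and without Dnmt-TKO DMSO replicate 1 or 2 or PRT4165 replicate 2.

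Stra8 had 76.6 and 65.7 CPM in Dnmt-TKO cells with PRT4165, against 82.7 and 81.7 CPM with DMSO, a log2 change of -0.21 ± 0.06 SE (adjusted p = 0.00592, edgeR). PRT4165 replicate 2 is the lowest of these libraries, and without it the change was -0.11 (adjusted p = 0.178, edgeR). In wild-type cells Stra8 had 59.3 and 57.0 CPM with PRT4165, against 55.5 and 55.1 CPM with DMSO (0.07, 95% interval -0.05 to 0.20, adjusted p = 0.356).

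Rec8 and Ythdc2 were called in neither genotype with PRT4165. In wild-type cells Rec8 had 7.67 and 6.48 CPM with PRT4165, against 6.79 and 6.996 CPM with DMSO. In Dnmt-TKO cells it had 16.4 and 16.3 CPM with PRT4165, against 15.7 and 17.9 CPM with DMSO. Its intervals were -0.19 to 0.29 in wild type and -0.23 to 0.14 in Dnmt-TKO cells. Ythdc2 in wild-type cells had 18.7 and 24.2 CPM with PRT4165, against 21.6 and 21.1 CPM with DMSO. In Dnmt-TKO cells it had 24.2 and 26.0 CPM with PRT4165, against 26.0 and 24.3 CPM with DMSO. The libraries of both genes overlap between inhibitor and vehicle. Stem cell markers summed to 4538 to 4754 CPM in Dnmt-TKO cells with PRT4165 against 5802 to 5844 CPM with DMSO, and to 6246 to 6455 CPM in wild-type cells with PRT4165 against 7191 to 7261 CPM with DMSO. Trophoblast markers summed to 1388 to 1392 CPM in Dnmt-TKO cells with PRT4165 against 994 to 1032 CPM with DMSO. In wild-type cells they summed to 155 to 160 CPM with PRT4165 against 101 to 112 CPM with DMSO, and 7 of 13 tested rose. Endoderm markers in wild-type cells summed to 1970 to 2064 CPM with PRT4165 against 1573 to 1575 CPM with DMSO. Of 13 endoderm markers, 6 rose and 2 fell in wild-type cells, and 1 rose and 5 fell in Dnmt-TKO cells. Of 10 markers of the 2-cell stage, 6 fell and 0 rose in Dnmt-TKO cells, and 0 were called in wild-type cells. Fibroblast feeder markers summed to 967 to 1027 CPM in wild-type cells with PRT4165 against 687 to 763 CPM with DMSO. In Dnmt-TKO cells they summed to 616 to 635 CPM with PRT4165 against 524 to 548 CPM with DMSO. Of 11 tested, 2 rose and 1 fell in wild-type cells, and 2 rose and 2 fell in Dnmt-TKO cells. The part of these lists in the results was not tested. With PRT4165, 19.0% of all genes were called higher and 18.7% lower in wild-type cells, beside 1 member higher. In Dnmt-TKO cells 19.9% were called higher and 19.6% lower, beside 1 member each.

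Whether the inhibitor acted differently in the genotypes was tested as an interaction, which called 3.89% of all genes. By edgeR 0 of the 4 members were called, 2 (Stra8 and Meioc) had an unadjusted p under 0.05, and DESeq2 called 0. The estimates were -0.28 ± 0.08 (log2, SE; adjusted p = 0.0569) for Stra8 and -0.32 ± 0.12 (adjusted p = 0.16) for Meioc. Stra8 passed without Dnmt-TKO PRT4165 replicate 1 (-0.41, adjusted p = 0.00653, edgeR), without wild-type DMSO replicate 1 (-0.29, adjusted p = 0.0426) and with the replicate number as a block (-0.28, adjusted p = 0.0495). Against wild-type cells with DMSO, Dnmt-TKO cells with PRT4165 had all 4 members higher, as were 39.6% of all genes, by 1.31 ± 0.09 (log2, SE) for Meioc, 1.24 ± 0.11 for Rec8, 0.37 ± 0.06 for Stra8 and 0.23 ± 0.09 for Ythdc2. The Ythdc2 difference was not called by DESeq2 (adjusted p = 0.0788), nor without replicate 2 of either group.

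The other regulators of meiotic entry were measured in the same comparisons. Of 26 tested meiotic entry regulators, 15 rose, 4 fell and 7 were not called in Dnmt-TKO cells with DMSO against wild-type cells with DMSO, and their median log2 change was 0.61, against 0.01 for all genes. Of all genes 34.8% were higher and 34.2% lower there. Dazl, which encodes the RNA-binding protein that licenses germ cells for meiosis, had 89.4 and 85.2 CPM in Dnmt-TKO cells, against 9.97 and 8.58 CPM in wild-type cells (3.24 ± 0.07, log2, SE). Bhlhe40, a repressor of the basic helix-loop-helix family, fell by 1.45, but shares exon bases with 0610040F04Rik. In untreated Dnmt-TKO against untreated wild-type cells, 9 of 23 rose and 1 fell, with a median of 0.18, beside 25.9% of all genes higher and 24.3% lower. In Tet1-KO Dnmt-TKO against Dnmt-TKO cells, 2 of 23 tested regulators rose, 5 fell and 16 were not called, with a median of -0.24, beside 11.6% of all genes higher and 10.4% lower. Sohlh2, a germ cell transcription factor, had 16.9 and 14.4 CPM in Tet1-KO Dnmt-TKO cells, against 32.5 and 30.8 CPM in Dnmt-TKO cells (-1.02 ± 0.12). Dmrt1, which in mouse testis holds back Stra8 and in the fetal ovary helps it, fell by 1.03, and Bhlhe40 and Msx2 rose by 0.80 and 1.07.

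Dazl, named here after its values were seen, was not called between those genotypes: it had 48.5 and 48.0 CPM in Tet1-KO Dnmt-TKO cells, against 56.0 and 51.0 CPM in Dnmt-TKO cells and 11.6 and 10.99 CPM in wild-type cells (-0.15 against Dnmt-TKO cells, adjusted p = 0.321, edgeR). With PRT4165 against DMSO in Dnmt-TKO cells, 9 of the 26 regulators rose and 3 fell, beside 19.9% of all genes higher and 19.6% lower. Kctd19, a partner of ZFP541 in meiotic prophase, had 14.2 and 18.4 CPM with PRT4165, against 0.10 and 0.17 CPM with DMSO (6.88 ± 0.58), and shares exon bases with Plekhg4. Tex15, a germ cell protein of transposon silencing, had 28.3 and 37.1 CPM with PRT4165, against 15.4 and 18.2 CPM with DMSO.

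Genes of retinoic acid and BMP signalling, which act upstream of Stra8 in germ cells, were counted in the same way. Of 29 tested, 4 rose, 4 fell and 21 were not called in Tet1-KO Dnmt-TKO against Dnmt-TKO cells, beside 11.6% of all genes higher and 10.4% lower. With any 1 of those 4 libraries left out, 4 to 7 rose and 0 to 2 fell. Rara, a retinoic acid receptor, fell by 0.67 (30.3 and 25.1 CPM in Tet1-KO Dnmt-TKO cells, against 46.2 and 41.8 CPM in Dnmt-TKO cells), and Crabp1, a retinoic acid binding protein, fell by 0.66. Bmp7 and Smad1, a BMP ligand and a transducer of its signal, rose by 1.14 and 0.74. In Dnmt-TKO cells with DMSO against wild-type cells with DMSO, 10 of 30 rose and 9 fell, near the 34.8% and 34.2% of all genes. Bmp4, the ligand, had 16.8 and 17.7 CPM in Dnmt-TKO cells, against 114 and 120 CPM in wild-type cells, and shares exon bases with Gm15217, while Id2 and Id3, targets of that signal, rose by 1.93 and 1.24. With PRT4165 against DMSO in Dnmt-TKO cells, 9 of 30 rose and 5 fell, beside 19.9% of all genes higher and 19.6% lower. With 1 of those libraries left out, 4 to 7 rose and 4 to 5 fell. Aldh1a2, which makes retinoic acid, rose by 1.29 there and Smad1 by 0.59, while the BMP targets Id1 and Id3 fell by 1.14 and 0.55.

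Among 24 repressors known to act on meiotic genes (the non-canonical PRC1 with E2F6 and its partners, DNA methylation factors and others), 2 rose and 2 fell in Tet1-KO Dnmt-TKO against Dnmt-TKO cells (at most 1 each with any 1 of those libraries left out), and 10 rose and 10 fell in Dnmt-TKO cells with DMSO against wild type. Of all genes, 11.6% were higher and 10.4% lower in the first of these comparisons, and 34.8% higher and 34.2% lower in the second. Rnf2, a catalytic subunit of PRC1, had 122 and 127 CPM in Dnmt-TKO cells, against 311 and 310 CPM in wild-type cells. Rnf2 shares exon bases with Trmt1l in the annotation used here, and how reads on shared bases were counted is not known. Bcor, a corepressor of a PRC1 variant, rose by 2.03.

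The genes that work with Ythdc2 on RNA were counted next. By edgeR 0 of 23 tested m6A and RNA decay genes were called in Tet1-KO Dnmt-TKO against Dnmt-TKO cells, 4 had an unadjusted p under 0.05, and DESeq2 called 1. There 11.6% of all genes were called higher and 10.4% lower. In untreated Dnmt-TKO against untreated wild-type cells, 7 of 23 rose and 1 fell, with a median of 0.05, beside 25.9% of all genes higher and 24.3% lower. With 1 library left out, 5 to 7 rose and 0 to 2 fell. In Dnmt-TKO cells with DMSO against wild type, 6 rose and 13 fell, with a median of -0.14, beside 34.8% of all genes higher and 34.2% lower. With library-size scaling 10 rose and 5 fell, and the median was 0.01, against 0.16 for all genes. Igf2bp2, a reader of m6A, rose by 1.01, and Dhx9, an RNA helicase, fell by 0.47.

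Smc1b and Stag3, partners of Rec8 in the meiotic cohesin ring, fell in the comparison in which Rec8 fell. Of 21 tested cohesin genes, 1 rose and 4 fell in Tet1-KO Dnmt-TKO against Dnmt-TKO cells, although 2 to 3 fell and 0 rose when any 1 of those libraries was left out, and 10.4% of all genes were lower there. Smc1b, the meiotic SMC subunit, had 13.0 and 16.6 CPM in Tet1-KO Dnmt-TKO cells, against 41.5 and 51.6 CPM in Dnmt-TKO cells (-1.65 ± 0.15, log2, SE; adjusted p = 2.97e-05). Stag3, the meiotic STAG subunit, had 29.6 and 28.7 CPM in Tet1-KO Dnmt-TKO cells, against 49.9 and 56.8 CPM in Dnmt-TKO cells (-0.87 ± 0.11, adjusted p = 0.000217). In Dnmt-TKO cells with DMSO against wild type, 4 of 23 rose and 12 fell, beside 34.8% of all genes higher and 34.2% lower. Smc1b, among those that rose, had 44.6 and 43.8 CPM in Dnmt-TKO cells, against 4.50 and 3.58 CPM in wild-type cells (3.46 ± 0.11), and Rad21, the kleisin of mitotic cohesin, fell by 0.50. With library-size scaling 10 of the 23 rose and 10 fell there. Their median log2 change was then 0.05, against 0.16 for all genes, and with TMM -0.10, against 0.01.

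Early meiotic effectors include genes of synapsis and recombination. Of 30 tested effectors, 1 rose and 6 fell in Tet1-KO Dnmt-TKO against Dnmt-TKO cells, with a median of -0.34, beside 11.6% of all genes higher and 10.4% lower. When any 1 of those libraries was left out, 3 to 4 fell and 0 rose, and with library-size scaling 10 fell. That scaling also lowered the share of higher calls among all genes. Syce1, a protein of the synaptonemal complex, had 11.5 and 11.5 CPM in Tet1-KO Dnmt-TKO cells, against 27.9 and 31.9 CPM in Dnmt-TKO cells (-1.38 ± 0.14). Meiob, which binds single-stranded DNA in recombination, had 0.62 and 0.81 CPM in Tet1-KO Dnmt-TKO cells, against 2.16 and 2.58 CPM in Dnmt-TKO cells (-1.72 ± 0.31). In Dnmt-TKO cells with DMSO against wild type, 16 of 30 effectors rose and 6 fell, with a median of 0.53, beside 34.8% of all genes higher and 34.2% lower. Hormad1, a protein of the chromosome axis, had 43.2 and 43.4 CPM in Dnmt-TKO cells, against 7.14 and 6.34 CPM in wild-type cells. In untreated Dnmt-TKO against untreated wild-type cells, 12 of 30 rose and 5 fell, beside 25.9% of all genes higher and 24.3% lower. Of these effectors 2 fell without Dnmt-TKO replicate 1 and 3 without wild-type replicate 2. With PRT4165 against DMSO in Dnmt-TKO cells, 12 of the 30 rose and 4 fell, beside 19.9% of all genes higher and 19.6% lower. Sycp3, of the same axis as Hormad1, shares exon bases with Chpt1 and had 6.66 and 5.84 CPM with PRT4165, against 1.78 and 1.61 CPM with DMSO. Sycp1, of the same list, had 8.77 and 9.57 CPM with PRT4165, against 14.2 and 13.6 CPM with DMSO (-0.60).

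**Figure D5:**
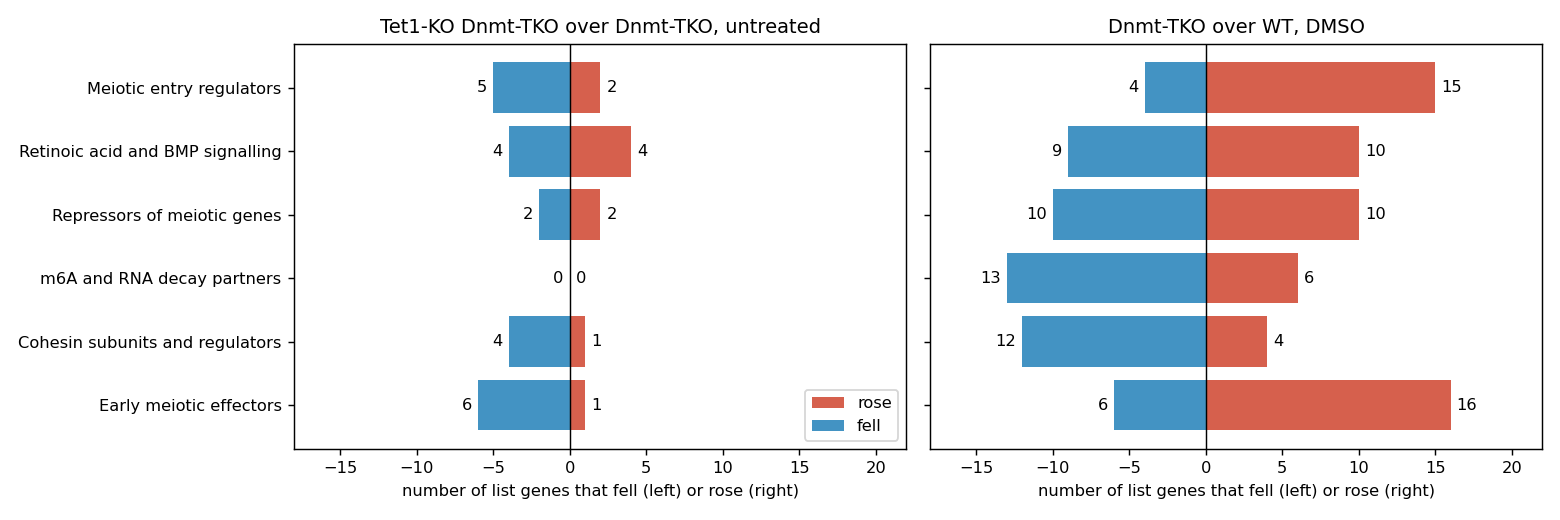
Number of tested genes of 6 lists that fell (blue, left of 0) or rose (red, right of 0), for Tet1-KO Dnmt-TKO over Dnmt-TKO cells and for Dnmt-TKO over wild-type cells with DMSO; genes not called are not drawn. On the right-hand panel 15 entry regulators rose and 4 fell, and 16 effectors rose and 6 fell, beside 34.8% of all genes higher and 34.2% lower. On the left-hand one 2 regulators rose and 5 fell, and 1 effector rose and 6 fell, beside 11.6% higher and 10.4% lower.

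Likeness between genes was described by correlation. Across the 8 libraries of experiment 1, the Pearson correlation of log2 CPM between Stra8 and Rec8 was 0.918 and that between Stra8 and Meioc 0.782. Across the 6 libraries of experiment 2 they were 0.486 and 0.956. Libraries of a group share their cell line, so these are descriptions. Among 12612 protein-coding genes, those most like each member over experiment 1 were named. For Stra8 they were Prcp, Utp23 and Cnp (0.991, 0.981 and 0.980), and over experiment 2 their correlations were -0.775, 0.02 and 0.982. For Meioc they were Tec, Mxra7 and Mok (0.997, 0.995 and 0.995), with -0.594, 0.936 and -0.210 in experiment 2. For Ythdc2 they were Ccm2l, 9530077C05Rik and Vamp1 (0.963, 0.925 and 0.920), with 0.066, -0.542 and -0.907. For Rec8 they were Prtg, Nudt10 and Nlrp14 (0.999, 0.998 and 0.997), with 0.412, -0.056 and 0.337. Cnp, which shares exon bases with Dnajc7, and Mxra7 were above 0.9 in both experiments, and the other 10 were at 0.412 or lower in experiment 2.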

How the data were processed

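The authors deposited 2 tables of counts, 1 for each experiment, which hold whole numbers and were not normalized. The submitters' processing notes name TopHat2 2.0.2, Bowtie 0.12.8 and HTSeq 0.5.3p9, and mm9 as the genome build. Not given in the sources used here are the strand setting, the annotation release and the dose and duration of PRT4165. Symbols (32919 of 37991 IDs), exon lengths and gene order came from GENCODE M21, of a later build.

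Each experiment was fitted alone in edgeR 4.0.16 (R 4.3.3, limma 3.58.1): filterByExpr (minimum count 10, minimum total 15; 16711 and 16303 genes kept), TMM, 1 quasi-likelihood fit of all groups, two-sided F-tests, Benjamini-Hochberg adjustment over all genes tested, calls at an adjusted p under 0.05. A gene's pair of libraries was said to overlap by their ranges of CPM. How many of all genes had libraries that do not overlap was not counted. The SE is a Wald error from the fitted quasi-dispersion. The steps were run on simulated counts that gave all genes of an experiment the same dispersion. That run does not test the p-values under the spread of these libraries. The 9 comparisons shared controls within an experiment, and no test crosses experiments.

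Besides the members, the text names the targeted genes, up to 2 called genes per list and direction by p with libraries that do not overlap, the nearest tested genes on each side, and the 3 genes most correlated over experiment 1 with a mean of at least 1 CPM (prior count 2), some left out for length. Members and lists were chosen with earlier results of these data known. Nothing in the labels ties the replicates to separate cultures. The spread behind each p-value is that between these libraries and may be technical. Replicates differed by more than counting noise. Alternatives were DESeq2 1.42.0, other scalings and filters, a replicate block, fits of only the groups compared, and each library left out.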

Additional observations from a re-analysis of the deposited data

Results flagged for a closer look

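The difference of Stra8 between Dnmt-TKO and wild-type cells had opposite signs in the 2 experiments. Its log2 change was 0.57 under DMSO (82.7 and 81.7 CPM in Dnmt-TKO cells, against 55.5 and 55.1 CPM in wild-type cells) and -0.68 in untreated cells (44.5 and 31.3 CPM in Dnmt-TKO cells, against 54.4 and 67.8 CPM in wild-type cells). The genotypes did not overlap in either experiment, though for how many of all genes this holds was not counted. The difference between the experiments was not tested, since no library is shared, the tables were fitted apart, and DMSO cannot be told apart from the experiment. The untreated call was lost when replicate 2 of either genotype was left out. No group was large enough for a search for outlying samples.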

How the results depend on the processing

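Of 444 recalculated member values, 400 kept their direction and their side of the threshold. The falls of Stra8, Meioc and Rec8 in Tet1-KO Dnmt-TKO against Dnmt-TKO cells, and the rises of Stra8, Meioc and Rec8 in Dnmt-TKO against wild-type cells under DMSO, did so under all 12 alternatives run. The cause of each change below was not tested.

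With DESeq2, Ythdc2 was no longer called in Dnmt-TKO against wild-type cells under DMSO (0.24, adjusted p = 0.0794) or PRT4165 (0.24, adjusted p = 0.0778), nor with both perturbations against neither (0.23, adjusted p = 0.0788). Meioc lost its call for PRT4165 in Dnmt-TKO cells (0.23, adjusted p = 0.129). DESeq2 called 4360 genes there, against 6596, and 361 genes in the interaction, against 650. The uncalled Ythdc2 values near 0 changed sign. Its interaction was -0.0053 with library size only, -0.0050 with upper-quartile scaling, -0.0010 with the replicate block and -0.0020 with DESeq2. With upper-quartile scaling its PRT4165 effect was 0.012 in wild-type and 0.0067 in Dnmt-TKO cells. Its Tet1 effect was -0.059 with library size only, -0.068 with upper-quartile scaling and -0.0065 with a filter of 1 CPM.

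The replicate block put Stra8 past the threshold in the interaction (-0.28, adjusted p = 0.0495) and changed no other call of a member. The numbers are not tied to cultures in the labels. Deviations of same-numbered libraries correlated by -0.034 to 0.038 in experiment 1 and by 0.111 to 0.236 in experiment 2.

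Leaving out 1 library gave the following lowest and highest log2 changes. In Dnmt-TKO against wild type, Ythdc2 ranged from 0.19 to 0.29 under DMSO, from 0.027 to 0.39 under PRT4165 and from 0.36 to 0.51 untreated. Untreated, Stra8 ranged from -0.96 to -0.45 and Meioc from -0.070 to 0.41. With both perturbations against neither, Ythdc2 ranged from 0.18 to 0.27. For PRT4165 in Dnmt-TKO cells, Stra8 ranged from -0.34 to -0.11, Meioc from 0.15 to 0.29, Ythdc2 from -0.073 to 0.028 and Rec8 from -0.15 to 0.035. For PRT4165 in wild-type cells, Ythdc2 ranged from -0.18 to 0.19 and Rec8 from -0.082 to 0.16. In the interaction, Stra8 ranged from -0.41 to -0.18, Ythdc2 from -0.19 to 0.17 and Rec8 from -0.20 to 0.042. Ythdc2 ranged from -0.061 to 0.083 in Tet1-KO Dnmt-TKO against Dnmt-TKO cells and from 0.38 to 0.53 against wild type, where it was not called without Tet1-KO Dnmt-TKO replicate 2 (adjusted p = 0.0515). Its untreated call was lost without Dnmt-TKO replicate 1 (adjusted p = 0.065). Called genes numbered 304 to 913 in the interaction and 1633 to 2468 for Tet1-KO Dnmt-TKO against Dnmt-TKO cells, against 3584 with every library.

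Scaling by library size alone put the median log2 change of all genes at 0.16 in Dnmt-TKO against wild-type cells under DMSO, against 0.01 with TMM, and 63.5% of the calls were then higher, against 50.5%. Of the calls for Tet1-KO Dnmt-TKO against Dnmt-TKO cells, 40.6% were higher with library size alone and 38.2% with upper-quartile scaling, against 52.9%. A fit of only the groups compared was not run for the interaction, which uses all 4.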
